A study of Mus musculus with 47 samples.

Results

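The response of female gonadal fat to a high-fat diet was compared between CAST/EiJ and C57BL/6J mice. The libraries were selected by their labels as those of females of these strains, 16 of the 47 in the series, with 4 in each of 4 groups. The quantity tested for every gene was the interaction of diet and strain, which is the diet effect (44% over 10% fat, log2) in CAST/EiJ minus the diet effect in C57BL/6J. A negative interaction says that the gene went lower on 44% fat, relative to 10% fat, in CAST/EiJ than in C57BL/6J. It can come from a fall in CAST/EiJ, a rise in C57BL/6J or both, so both diet effects are given with it.

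The series holds poly(A) RNA of gonadal fat pads from 3 inbred strains of wild-type mice, and its title asks how genotype and diet together shape susceptibility to type 2 diabetes. C57BL/6J is the common laboratory strain and CAST/EiJ is a wild-derived strain of another mouse subspecies. The 4 groups were CAST/EiJ females on 10% fat with fiber, CAST/EiJ females on 44% fat with fiber, and the same diets in C57BL/6J females, with n = 4 each. Diets began at 6 weeks of age and tissue was collected at 15 weeks. Whether the libraries of a group are separate animals is not in the labels, so p-values measure the spread between these libraries.

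White fat cells take up glucose through the insulin-responsive transporter encoded by Slc2a4, break it down by glycolysis and export citrate from mitochondria to the cytosol. The enzyme encoded by Acly splits that citrate into acetyl-CoA, which feeds both fatty acid synthesis and cholesterol synthesis. The transcription factors SREBP1c, SREBP2 and ChREBP are known to raise the genes of these pathways when carbohydrate and insulin are plentiful or sterols are scarce. In many mouse strains a diet rich in fat lowers fatty acid synthesis in white fat.

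Several libraries stood apart from the rest of their group, and the counts and lists below are given with and without them. In a principal component analysis of the 8 C57BL/6J libraries, component 1 (33.1% of the variance) placed replicate 2 of the 10% fat group at 12.4, beside the 44% fat libraries at 15.4 to 44.1. The other C57BL/6J libraries on 10% fat lay between -44.7 and -39.1. Skeletal muscle genes, a list of 11, summed to 69.6, 29.5, 396 and 11.6 CPM (counts scaled to library size) in C57BL/6J on 10% fat and to 50.9 CPM in CAST/EiJ on 44% fat replicate 4, against at most 25.6 CPM in the other 11 libraries. The B and plasma cell list summed to 693 CPM in C57BL/6J on 44% fat replicate 3 and to at most 190 CPM elsewhere. Deposited counts per library summed to 29.5 to 56.4 M. Adipocyte identity genes summed to between 25570 and 46610 CPM in the 16 libraries, as the tissue label calls for. Replicate numbers only name libraries in accession order.

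**Figure D1:**
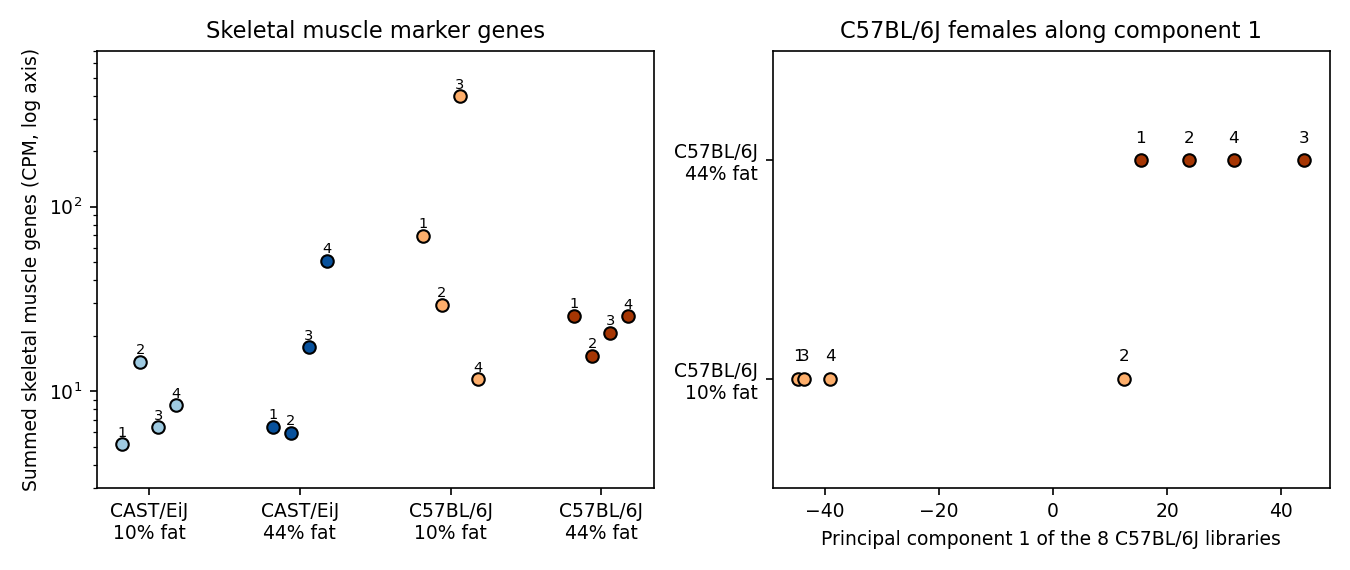
Left, summed CPM of 11 skeletal muscle genes in each library of the 4 female groups (log axis, numbers are replicates). Right, position of the 8 C57BL/6J libraries on principal component 1. Replicates 1 and 3 of C57BL/6J on 10% fat and replicate 4 of CAST/EiJ on 44% fat are high in muscle genes, and replicate 2 of C57BL/6J on 10% fat lies beside the 44% fat libraries.

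Fat synthesis, sugar use and cholesterol synthesis were the listed pathways with the most negative median interactions, and smooth muscle, brown fat and fatty acid oxidation genes had positive medians. Other marker lists were positive too: skeletal muscle (6.79), mesothelial (0.79), ovary, oviduct and uterus (0.76), mammary epithelium (0.61), erythrocyte (0.43) and B and plasma cell (0.24). Medians were negative for T and NK cell (-0.19), neutrophil and mast cell (-0.14) and endothelial genes (-0.02). Of 18769 genes tested, 1417 (7.55%) were called for the interaction at an adjusted p below 0.05 in edgeR's quasi-likelihood test with Benjamini-Hochberg adjustment. Of these, 538 (2.87%) were positive and 879 (4.68%) negative, 451 differed at least 2-fold, and 1339 were protein-coding. The median interaction over all genes tested was 0.01. Scaling by library totals in place of TMM, edgeR's trimmed-mean scaling, moved that median to 0.15 and the positive share of calls from 38% to 71.5%, so the balance of signs over all genes depended on the scaling.

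The diet effects behind the calls differed by direction. Diet alone was called for 1232 genes (6.56%) in CAST/EiJ, 398 up (2.12%) and 834 down (4.44%), and for 1368 genes (7.29%) in C57BL/6J, 727 up (3.87%) and 641 down (3.42%). Among the 879 negative interactions, 372 fell on 44% fat in CAST/EiJ with no call in C57BL/6J, 262 rose in C57BL/6J with no call in CAST/EiJ, and 22 did both. Another 222 were called for the interaction and in neither strain alone, and 1 fell in both. Among the 538 positive interactions, 221 fell in C57BL/6J with no call in CAST/EiJ, 127 rose in CAST/EiJ with no call in C57BL/6J, 14 did both, 2 rose in both and 174 were called in neither. By the signs of the estimates alone, 796 of 879 negative interactions paired a lower level in CAST/EiJ with a higher one in C57BL/6J. The calls were selected on the difference of these same estimates, so opposite signs were partly fixed by the selection. The share over all genes was not taken.

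The counts for the interaction and for diet in C57BL/6J depended on which libraries entered. Leaving out the 3 libraries high in skeletal muscle genes left C57BL/6J on 10% fat with 2 libraries, replicates 2 and 4, of which replicate 2 is the one beside the 44% fat libraries on component 1. In that fit 103 genes (0.549%) were called, of which 102 were among the 1417. There 1409 of the 1417 kept their sign, and the size of the interaction was a median of 0.928 of its value with all libraries. The libraries in that fit also made the 1417 calls, so this agreement was partly fixed by the selection. Diet in C57BL/6J had 12 calls (0.0639%) in the same fit and diet in CAST/EiJ 1151 (6.13%). Of the genes named in the text, only Marc1, Aldoa, Pygl, Syt12, Serpina3k, Shisa6, Grb10 and Hist2h2aa2 were called for the interaction there, all other interaction calls named below were lost with their sign kept, and no diet call in C57BL/6J named below was kept. Without replicate 2 of C57BL/6J on 10% fat alone, 2367 genes were called for the interaction. That library was singled out for lying beside the 44% fat libraries. More calls and larger interactions without it, here and below, were therefore partly fixed by that choice. Counts without single libraries also fell more than 1.5-fold for replicates 1, 3 and 4 of that group (677, 898 and 824), for replicate 3 of C57BL/6J on 44% fat (846), for replicate 1 of CAST/EiJ on 44% fat (792) and for replicate 4 of CAST/EiJ on 10% fat (700). The part of muscle content in these counts was not tested beyond this.

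Of the 12 protein-coding genes with the most negative called interactions at a mean log2 CPM of at least 1, 8 fell in CAST/EiJ and 5 rose in C57BL/6J, some of them both. Over all genes 4.44% fell in CAST/EiJ and 3.87% rose in C57BL/6J. Ranking by the interaction partly fixes these counts. The lowest was Marc1 (ENSMUSG00000026621, GRCm38 chromosome 1, 184786767 to 184811313), which encodes a molybdenum enzyme of the outer mitochondrial membrane. Marc1 stood at 103, 95.8, 143 and 143 CPM in CAST/EiJ on 10% fat and at 2.40, 6.63, 8.23 and 7.98 CPM on 44% fat. In C57BL/6J it stood at 25, 103, 37.6 and 36.3 CPM on 10% fat and at 70.1, 67.2, 96.8 and 67.5 CPM on 44% fat. The CAST/EiJ diets did not overlap, every 44% fat library lying below every other library of the 16, and the C57BL/6J diets overlapped only through replicate 2 on 10% fat. Marc1 fell 19.2-fold in CAST/EiJ, and its interaction was -4.84 (SE 0.60, adjusted p = 1.33e-05). It was -4.51 (adjusted p = 0.0021) without the libraries high in muscle genes and -5.46 without replicate 2. Within the 3 ranges of sample numbers in the labels it was -6.87, -4.06 and -5.05.

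Genes that make fatty acids had negative interactions throughout the list. Of 20 de novo lipogenesis genes, 7 were called, all negative (4.68% of all genes tested), and all 20 had a negative estimate, with a median of -0.97 against 0.01 over all genes. Diet lowered 12 of the 20 in CAST/EiJ (median -0.91), against 4.44% of all genes. In C57BL/6J 2 rose and 2 fell (median 0.06), against 3.87% and 3.42% of all genes. Without the libraries high in muscle genes the median was -0.94 and no member was called, and without replicate 2 of C57BL/6J on 10% fat it was -1.12 with 9 called. Under library totals the median was -0.83.

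Acly (ENSMUSG00000020917, chromosome 11, 100476353 to 100528000), ATP-citrate lyase, gave the lowest estimate of the list. It stood at 6896, 6822, 12666 and 10601 CPM in CAST/EiJ on 10% fat and at 669, 1681, 2699 and 2051 CPM on 44% fat. Levels in C57BL/6J were 779, 3602, 1969 and 1172 CPM on 10% fat and at 3336, 3381, 3015 and 991 CPM on 44% fat. All CAST/EiJ libraries on 10% fat lay above the other 12 libraries, and the C57BL/6J diets overlapped. Acly fell 5.21-fold in CAST/EiJ, and its interaction was -2.89 (SE 0.75, adjusted p = 0.0153). It was -2.63 (adjusted p = 0.141) without the libraries high in muscle genes.

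Genes of neighbouring steps were called as well. Slc25a1, the mitochondrial citrate exporter, had an interaction of -1.41 and fell 3.10-fold in CAST/EiJ. Acss2, which makes acetyl-CoA from acetate, and Me1, the malic enzyme that supplies NADPH, had interactions of -2.52 and -2.16. Elovl6, which lengthens fatty acids, stood at 616.6, 515, 719 and 980 CPM in CAST/EiJ on 10% fat and at 39.7, 102, 121 and 95.6 CPM on 44% fat. In C57BL/6J Elovl6 stood at 400.5, 966, 738 and 545 CPM on 10% fat and at 480, 474, 419 and 154 CPM on 44% fat. The CAST/EiJ diets did not overlap and the C57BL/6J diets did, and the interaction was -2.19 (adjusted p = 0.046), a call lost in 11 of 16 fits that left out 1 library. It was -2.03 (adjusted p = 0.229) without the libraries high in muscle genes.

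Not every enzyme of fat synthesis was called. Fasn, fatty acid synthase, lay between 43043 and 55878 CPM in CAST/EiJ on 10% fat, between 9326 and 21985 CPM on 44% fat, between 13846 and 24811 CPM in C57BL/6J on 10% fat and between 8556 and 27632 CPM on 44% fat. Fasn therefore fell in CAST/EiJ (log2 -1.51, adjusted p = 0.00785) with C57BL/6J at -0.01, but its interaction of -1.51 (SE 0.52) had an adjusted p of 0.0637. Acaca, the carboxylase of the pathway, gave -0.97 (adjusted p = 0.207) and Scd1, the main desaturase, -0.60 (adjusted p = 0.231). The regulators Srebf1 and Mlxipl, which encode SREBP1 and ChREBP, gave -0.77 and -0.38, with adjusted p of 0.0843 and 0.562. Fasn, Acly, Acaca and Scd1 summed to 15.2% to 20.3% of the TMM-scaled library total in CAST/EiJ on 10% fat and to 7.15% to 10.8% on 44% fat. In C57BL/6J they summed to 7.7% to 12.4% on 10% fat and to 7.49% to 13.5% on 44% fat. The TMM factors were 0.795 to 0.867 in CAST/EiJ on 10% fat and 0.878 to 1.03 in the other groups. Shares of unscaled counts in CAST/EiJ on 10% fat are therefore smaller than those given.

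Scd2 and Dgat2 differed in how the interaction arose. Dgat2 encodes the acyltransferase that makes triglyceride, and it lay between 1568 and 3404 CPM in the CAST/EiJ libraries, with overlapping diets. In C57BL/6J Dgat2 stood at 853, 1887, 1055 and 932 CPM on 10% fat and at 2379, 2244, 2906 and 1717 CPM on 44% fat, overlapping through replicate 2 on 10% fat. Dgat2 rose in C57BL/6J (log2 0.97, adjusted p = 0.0133), was at -0.45 in CAST/EiJ (adjusted p = 0.304), and had an interaction of -1.42 (adjusted p = 0.0106). Without the libraries high in muscle genes the interaction was -1.26 (adjusted p = 0.115) and the C57BL/6J effect 0.71 (adjusted p = 0.39). Scd2, a second desaturase, likewise rose in C57BL/6J (log2 1.36, adjusted p = 0.0481), with an interaction of -2.25.

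**Figure D2:**
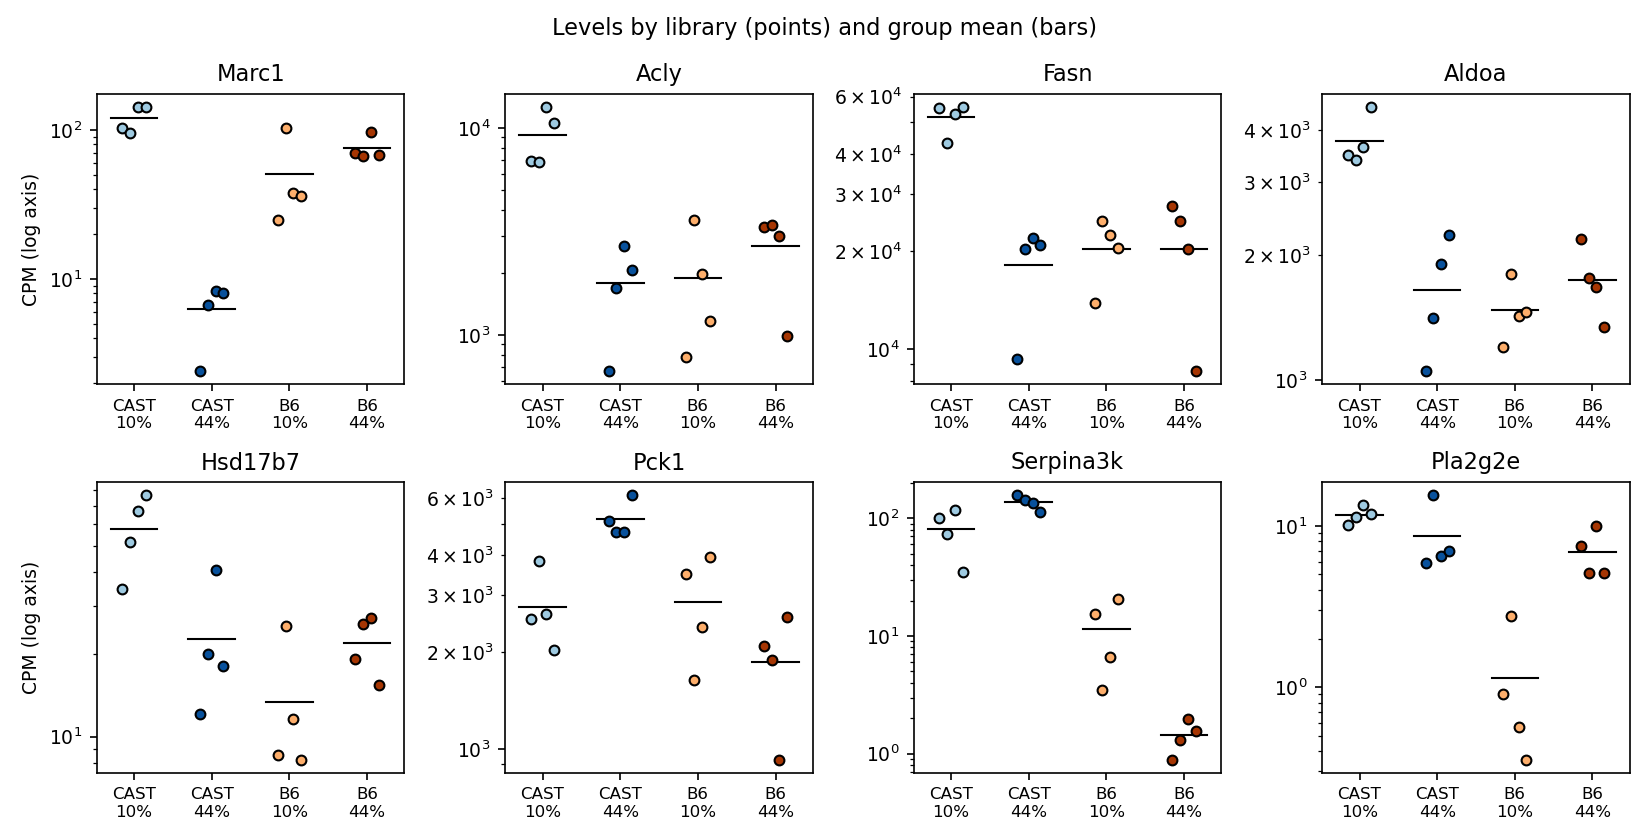
CPM of 8 genes in the 16 female libraries (points, log axis) with group means (bars), B6 standing for C57BL/6J and CAST for CAST/EiJ. Marc1, Acly, Fasn, Aldoa and Hsd17b7 separate the CAST/EiJ diets more than the C57BL/6J diets, Pla2g2e separates the C57BL/6J diets, and for Pck1 the diets differ in opposite directions.

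Genes of glucose and fructose use followed the same direction. Of 27 members, 11 were called and all 11 were negative (4.68% of all genes), with 2 positive estimates in the list and a median of -0.94 against 0.01 over all genes. In CAST/EiJ 21 of the 27 fell on 44% fat (4.44% of all genes fell there), with a median of -1.02. In C57BL/6J 1 fell, a share near the 3.42% of all genes, with a median of -0.07. Without the libraries high in muscle genes the median was -0.85 and Aldoa and Pygl remained called. Glycolytic members were Hk2, which traps glucose in the cell, at -1.25, Aldoa, an aldolase, at -1.43, Gapdh at -0.99 and Pkm, pyruvate kinase, at -1.25.

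Aldoa lay between 3400 and 4563 CPM in CAST/EiJ on 10% fat and between 1052 and 2241 CPM on 44% fat, without overlap. In C57BL/6J Aldoa lay between 1204 and 1805 CPM on 10% fat and between 1347 and 2187 CPM on 44% fat, with overlap. The interaction had an adjusted p of 0.00285 with all libraries and 0.028 without those high in muscle genes. Aldoa is also abundant in muscle, and its diet effect was -1.19 in CAST/EiJ and 0.24 in C57BL/6J. In the pentose phosphate branch Tkt, transketolase, stood at -1.71 and Pgd, which makes NADPH, at -1.51. In glycogen handling Gys2, glycogen synthase, stood at -2.18, Gbe1, the branching enzyme, at -1.38, and Pygl, glycogen phosphorylase, at -1.42 (adjusted p = 0.00324, and 0.0367 without the libraries high in muscle genes).

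Slc2a4, the insulin-responsive glucose transporter, stood at 419, 381, 506 and 489 CPM in CAST/EiJ on 10% fat and at 173, 182, 310 and 258 CPM on 44% fat. The C57BL/6J libraries had 177, 246, 209 and 239 CPM on 10% fat and at 283, 218, 197 and 163 CPM on 44% fat. The CAST/EiJ diets did not overlap and the C57BL/6J diets did, with an interaction of -0.94 (SE 0.28, adjusted p = 0.033) that was lost in 8 of 16 fits without 1 library and in the fit without the libraries high in muscle genes (adjusted p = 0.197). Slc2a5, the fructose transporter, fell in CAST/EiJ (log2 -3.67) and was at -1.63 in C57BL/6J (adjusted p = 0.123), and its interaction was not called (-2.03, adjusted p = 0.17).

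Cholesterol synthesis gave the most negative median of the pathway lists. Of its 24 genes 12 were called, all negative (4.68% of all genes), all 24 estimates were negative, and the median was -1.33. Diet lowered 9 in CAST/EiJ (median -0.85) and raised 2 in C57BL/6J (median 0.50), against 4.44% and 3.87% of all genes. Without the libraries high in muscle genes the median was -1.18 with no member called, and without replicate 2 of C57BL/6J on 10% fat it was -1.53 with 17 called. Called members ran along the pathway from Mvk and Pmvk (-1.05 and -1.42), the mevalonate kinases, through Idi1 (-1.55), Fdps (-1.70), Sqle (-1.87) and Lss (-1.47) to the late enzymes Hsd17b7 (-2.04), Sc5d (-1.79) and Dhcr7 (-1.66). Srebf2, which encodes SREBP2, gave -0.21 (adjusted p = 0.485).

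Hsd17b7 shows how both strains entered. It stood at 34.8, 51.7, 66.9 and 76.7 CPM in CAST/EiJ on 10% fat and at 12.1, 20.1, 40.9 and 18.2 CPM on 44% fat. In C57BL/6J it stood at 8.53, 25.4, 11.6 and 8.24 CPM on 10% fat and at 19.3, 25.9, 27.1 and 15.5 CPM on 44% fat. Replicate 3 of CAST/EiJ on 44% fat overlapped the 10% fat libraries, and replicate 2 of C57BL/6J on 10% fat overlapped the 44% fat libraries. Hsd17b7 fell in CAST/EiJ (log2 -1.33, adjusted p = 0.0073), was at 0.71 in C57BL/6J (adjusted p = 0.188), and its interaction had an adjusted p of 0.0062 (0.125 without the libraries high in muscle genes).

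The start-site windows of 4 called cholesterol genes are shown because this list moved in a single direction. SREBP2 is known to act at many sterol genes beside the factor NF-Y, whose binding site is the CCAAT box. Each window holds 250 bases before and 50 bases after the start of a RefSeq transcript on GRCm38.p6, 5′ to 3′ on the gene's strand, with CCAAT on either strand in capitals (ATTGG is CCAAT read on the other strand). Hsd17b7 lies at chr1:169969156-169969455 (minus strand), Mvk at chr5:114444019-114444318 (plus), Lss at chr10:76531355-76531654 (plus) and Idi1 at chr13:8885356-8885655 (plus).
Hsd17b7: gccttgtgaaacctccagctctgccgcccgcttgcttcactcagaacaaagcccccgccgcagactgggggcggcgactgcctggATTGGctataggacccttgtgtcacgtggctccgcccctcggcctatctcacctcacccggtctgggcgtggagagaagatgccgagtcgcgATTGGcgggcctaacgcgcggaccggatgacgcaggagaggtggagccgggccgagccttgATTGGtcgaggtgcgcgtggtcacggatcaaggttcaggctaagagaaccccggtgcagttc
Mvk: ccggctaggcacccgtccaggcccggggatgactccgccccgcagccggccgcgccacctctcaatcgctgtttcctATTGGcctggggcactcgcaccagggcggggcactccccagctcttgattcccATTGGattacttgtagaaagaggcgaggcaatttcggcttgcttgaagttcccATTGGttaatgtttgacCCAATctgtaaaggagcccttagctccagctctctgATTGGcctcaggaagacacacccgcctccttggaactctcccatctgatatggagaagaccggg
Lss: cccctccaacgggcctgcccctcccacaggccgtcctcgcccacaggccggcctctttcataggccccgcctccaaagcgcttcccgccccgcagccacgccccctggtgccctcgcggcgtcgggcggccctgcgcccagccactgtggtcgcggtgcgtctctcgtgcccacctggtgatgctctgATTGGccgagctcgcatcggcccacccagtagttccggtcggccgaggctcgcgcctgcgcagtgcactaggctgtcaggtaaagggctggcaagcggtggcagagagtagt
Idi1: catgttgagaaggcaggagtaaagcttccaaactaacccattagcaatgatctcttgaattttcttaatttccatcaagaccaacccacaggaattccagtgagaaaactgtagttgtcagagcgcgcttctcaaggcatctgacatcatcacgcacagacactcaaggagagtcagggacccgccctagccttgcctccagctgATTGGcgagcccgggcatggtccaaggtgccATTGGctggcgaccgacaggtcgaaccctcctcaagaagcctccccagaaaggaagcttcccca
Of the 24 cholesterol genes 16 had a window in the RefSeq table, and each of the 16 had CCAAT in at least 1 of its windows (16 of 19 windows, 84.2%), against 37.4% of all 32851 windows. Among the 12 called members 8 were matched, and all 8 had it in at least 1 window. By windows that was 8 of 11 (72.7%), a lower share than the 84.2% of all members. For de novo lipogenesis 13 of 21 windows held CCAAT (61.9%), and for glucose and fructose use 14 of 31 (45.2%). The sterol element TCACNCCAC, searched on both strands, was in 1 of the 19 cholesterol windows and in 1.24% of all windows. It was in 0 of the 11 windows of called members. The E-box CACGTG was in 4 of 19, in 3 of those 11 and in 7.15% of all windows. Each motif was counted on its own, also where matches overlapped, and a match describes the sequence only.

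Genes of fat use and of brown or beige fat had positive median interactions and few calls. Of 20 fatty acid oxidation genes 3 were called, all positive (2.87% of all genes), 19 estimates were positive, and the median was 0.34, or 0.20 with no call without the libraries high in muscle genes. Acadl, a mitochondrial acyl-CoA dehydrogenase, was called at 0.79 (adjusted p = 0.0395), a call lost in 10 of 16 fits without 1 library. Cpt1a, the entry enzyme of mitochondrial oxidation, rose in both strains (log2 0.63 and 0.44), and its interaction was 0.19 (adjusted p = 0.512).

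Of 15 brown and beige fat genes only Ebf2, a regulator of brown fat identity, was called (0.79, adjusted p = 0.0373), a share near the 7.55% of all genes. The list median was 0.79, or 0.73 with no call without the libraries high in muscle genes. Ucp1, the uncoupling protein, lay between 62.1 and 570 CPM in CAST/EiJ on 10% fat, between 97.2 and 831 CPM on 44% fat, between 19.3 and 160 CPM in C57BL/6J on 10% fat and between 2.79 and 28.5 CPM on 44% fat. The diets overlapped in both strains. Ucp1 fell in C57BL/6J (log2 -2.36, adjusted p = 0.029), was at -0.19 in CAST/EiJ, and had an interaction of 2.17 (adjusted p = 0.142). The C57BL/6J effect was -2.65 (adjusted p = 0.141) without the libraries high in muscle genes. In bulk tissue fewer cells of a type and less RNA per cell cannot be told apart.

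Pck1, the enzyme that makes glycerol for fat re-esterification in adipocytes, went the other way from fat synthesis. It stood at 2522, 3819, 2613 and 2030 CPM in CAST/EiJ on 10% fat and at 5076, 4718, 4699 and 6122 CPM on 44% fat. Levels in C57BL/6J were 3478, 1636, 2386 and 3930 CPM on 10% fat and at 2082, 1881, 927 and 2565 CPM on 44% fat. All CAST/EiJ libraries on 44% fat lay above all other libraries, and the C57BL/6J diets overlapped. Pck1 rose 1.88-fold in CAST/EiJ (adjusted p = 0.0421, and 0.108 without the libraries high in muscle genes), and its interaction was 1.52 (SE 0.40, adjusted p = 0.0155, and 0.125 without them). Grb10, an imprinted gene for an adaptor that restrains insulin receptor signalling, rose in CAST/EiJ (log2 0.56) and had an interaction of 0.63 (adjusted p = 0.00295, and 0.028 without those libraries).

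**Figure D3:**
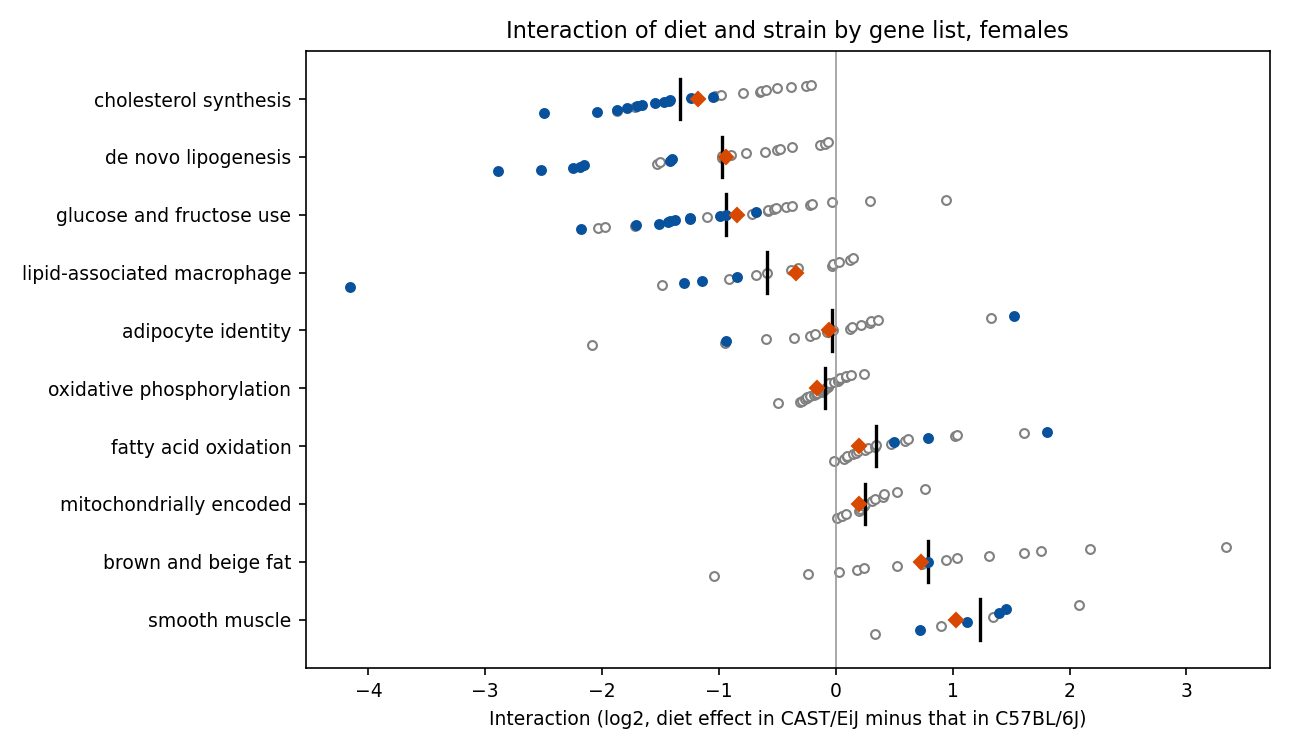
Interaction (log2) of each tested gene of 10 lists in females. Filled points passed an adjusted p of 0.05, open points did not, vertical bars are list medians with all libraries, and diamonds are medians without the 3 libraries high in skeletal muscle genes. All cholesterol and lipogenesis genes lie below 0, and their medians without those libraries stay below 0.

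Of the 12 protein-coding genes with the highest called interactions at the same minimum level, 8 fell on 44% fat in C57BL/6J and 2 rose in CAST/EiJ. Over all genes 3.42% fell in C57BL/6J and 2.12% rose in CAST/EiJ, and here too the ranking partly fixes the counts. Serpina3k (ENSMUSG00000058207, chromosome 12, 104338486 to 104346144), a secreted serine protease inhibitor of a cluster of near-identical genes, stood at 101, 72.8, 117 and 34.6 CPM in CAST/EiJ on 10% fat and at 157, 143, 133 and 114 CPM on 44% fat. The C57BL/6J libraries had 15.3, 3.47, 6.61 and 20.7 CPM on 10% fat and at 0.892, 1.30, 1.99 and 1.57 CPM on 44% fat. The C57BL/6J diets did not overlap and the CAST/EiJ diets did. Serpina3k fell 8.08-fold in C57BL/6J, and its interaction was 3.76 (SE 0.82, adjusted p = 0.0051, and 0.034 without the libraries high in muscle genes). Since counting among close copies is not described, its level and that of the neighbour Serpina3j (2.63) are uncertain.

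Other genes of this group had varied known roles. Acot1, a cytosolic acyl-CoA thioesterase with close copies in the genome, fell 4.24-fold in C57BL/6J and had an interaction of 2.75. Cyp2b10, a drug-inducible cytochrome, stood at 8.89, 12.4, 4.50 and 9.87 CPM in CAST/EiJ on 10% fat and at 10.3, 11.6, 21.2 and 38.3 CPM on 44% fat. In C57BL/6J Cyp2b10 stood at 0.824, 0.578, 0.773 and 1.61 CPM on 10% fat and at 0.164, 0.324, 0.280 and 0.361 CPM on 44% fat. The CAST/EiJ diets overlapped and the C57BL/6J diets did not, with an interaction of 2.95 (adjusted p = 0.00746). Slc25a34, a mitochondrial carrier, stood at 4.28, 3.28, 1.12 and 3.09 CPM in CAST/EiJ on 10% fat, at 4.59, 3.89, 4.87 and 14.5 CPM on 44% fat, at 2.84, 1.21, 4.50 and 6.44 CPM in C57BL/6J on 10% fat and at 1.03, 1.62, 0.663 and 1.03 CPM on 44% fat. The CAST/EiJ diets overlapped, the C57BL/6J diets overlapped through replicate 2 on 10% fat, and the interaction was 3.02 (adjusted p = 0.00848). Without the libraries high in muscle genes, Cyp2b10 was at 2.65 (adjusted p = 0.0713) and Slc25a34 at 2.41 (adjusted p = 0.111). Among the others, Vnn1, a pantetheinase, gave 2.62, Unc93a 2.93, Rgs2, a regulator of G protein signalling, 2.44, and Ptn, the growth factor pleiotrophin, 2.50. Zim1, an imprinted zinc finger gene, gave 2.51.

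Fabp3, a fatty acid binding protein of heart and brown fat, stood at 16.6, 16.7, 1.57 and 17.4 CPM in CAST/EiJ on 10% fat and at 13.6, 14.4, 49.8 and 82.2 CPM on 44% fat. In C57BL/6J it stood at 2.07, 3.28, 9.52 and 12.2 CPM on 10% fat and at 3.36, 3.66, 0.331 and 1.14 CPM on 44% fat. The diets overlapped in both strains, and the interaction of 3.27 (adjusted p = 0.0395) was lost in 8 of 16 fits without 1 library. Its 2 highest C57BL/6J libraries were replicates 3 and 4 on 10% fat. Their skeletal muscle genes summed to 396 and 11.6 CPM, the highest and the lowest of that group. Replicate 1, at 69.6 CPM of muscle genes, had the lowest Fabp3 of that group.

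Muscle genes had positive interactions. Skeletal muscle genes gave 10 calls of 11, all positive (2.87% of all genes), with a median of 6.79 that fell to 0.43 with no call when the 3 libraries high in them were left out. Atp2a1, the calcium pump of fast muscle, stood at 13.7, 0.633, 78.4 and 0.379 CPM in C57BL/6J on 10% fat, and at 14.0 CPM in replicate 4 of CAST/EiJ on 44% fat, against at most 0.534 CPM in the other 11 libraries. Mb, myoglobin, stood at 1.62, 0.330, 6.26 and 0.568 CPM in C57BL/6J on 10% fat and at 1.21, 2.57, 6.39 and 11.7 CPM in CAST/EiJ on 44% fat. The other 8 libraries had at most 0.722 CPM of Mb, and its interaction of 6.03 became 3.09 (adjusted p = 0.0992) without the libraries high in muscle genes.

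Smooth muscle genes gave 4 calls of 8, all positive (2.87% of all genes), with a median of 1.23, or 1.03 with no call without those libraries. Their summed level lay between 1337 and 2046 CPM in C57BL/6J on 10% fat, between 743 and 1292 CPM on 44% fat and between 317 and 640 CPM in CAST/EiJ on both diets. Tagln and Myh11, contractile genes of smooth muscle, fell in C57BL/6J (log2 -1.05 and -1.16), and their interactions were 1.46 and 1.40. Without the libraries high in muscle genes the C57BL/6J effects were -0.76 and -0.91 (adjusted p = 0.349 and 0.269). No cause of these muscle gene differences was tested.

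Genes that rose in C57BL/6J on 44% fat formed the other source of negative interactions. Pla2g2e, a secreted phospholipase, stood at 10.1, 11.4, 13.4 and 11.9 CPM in CAST/EiJ on 10% fat and at 5.90, 15.5, 6.48 and 6.96 CPM on 44% fat. Levels in C57BL/6J were 0.904, 2.75, 0.562 and 0.355 CPM on 10% fat and at 7.51, 5.13, 9.97 and 5.08 CPM on 44% fat. The C57BL/6J diets did not overlap, while the CAST/EiJ diets did. Pla2g2e rose 6.03-fold in C57BL/6J, and its interaction was -3.01 (SE 0.63, adjusted p = 0.00377, and 0.0985 without the libraries high in muscle genes). Col15a1 and Col5a3, collagens found around fat cells, rose in C57BL/6J (log2 1.04 and 0.93) with interactions of -1.12 and -1.42.

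Among genes linked to fat pad expansion, Sfrp5, a secreted Wnt antagonist, stood at 1.77, 9.49, 2.57 and 5.66 CPM in CAST/EiJ on 10% fat and at 4.13, 4.41, 5.41 and 5.15 CPM on 44% fat. The C57BL/6J libraries had 1.83, 3.86, 1.83 and 1.68 CPM on 10% fat and at 2.86, 2.12, 27.4 and 28.2 CPM on 44% fat. Replicates 3 and 4 of C57BL/6J on 44% fat were high, the diets overlapped in both strains, and the interaction of -2.73 (adjusted p = 0.0455) was lost in 11 of 16 such fits. Lep, the satiety hormone leptin, lay between 141 and 862 CPM in C57BL/6J on 10% fat and between 653 and 1616 CPM on 44% fat. The diets overlapped in C57BL/6J. The interaction of Lep was -2.09 (adjusted p = 0.0542), and it was not called without the libraries high in muscle genes. Without replicate 2 of C57BL/6J on 10% fat it was -2.83 (adjusted p = 0.00496). Since that library was singled out for lying beside the 44% fat libraries, the larger value was partly fixed by that choice. Mest, an imprinted gene linked to fat pad growth, rose in both strains (log2 2.00 in CAST/EiJ and 3.21 in C57BL/6J), with an interaction of -1.21 (adjusted p = 0.388).

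A set of 36 genes was called for diet in both strains with opposite signs and for the interaction. Syt12 (ENSMUSG00000049303, chromosome 19, 4445908 to 4477447), a synaptotagmin of vesicle traffic, stood at 88, 119, 87.3 and 162 CPM in CAST/EiJ on 10% fat and at 29.8, 36.1, 82.8 and 48.4 CPM on 44% fat. In C57BL/6J it stood at 9.30, 17.5, 15.1 and 12.7 CPM on 10% fat and at 29.6, 43.7, 49.5 and 22.6 CPM on 44% fat. Neither strain's diets overlapped, falling 2.32-fold in CAST/EiJ and rising 2.66-fold in C57BL/6J. The interaction of -2.62 (SE 0.40, adjusted p = 0.000153) was -2.47 (adjusted p = 0.0119) without the libraries high in muscle genes.

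Golga7b, which helps place a palmitoylating enzyme at the cell surface, stood at 2.44, 3.97, 1.99 and 8.63 CPM in CAST/EiJ on 10% fat and at 0.437, 0.967, 1.09 and 1.26 CPM on 44% fat. Levels in C57BL/6J were 1.09, 5.07, 1.65 and 2.16 CPM on 10% fat and at 8.38, 6.30, 16.5 and 4.39 CPM on 44% fat. The CAST/EiJ diets did not overlap, and the C57BL/6J diets overlapped through replicate 2 on 10% fat, with an interaction of -4.01 (adjusted p = 0.00251). Shisa6 moved the other way. It stood at 0.485, 0.248, 0.332 and 0.0908 CPM in CAST/EiJ on 10% fat, at 0.607, 1.01, 1.43 and 1.17 CPM on 44% fat, at 5.85, 1.40, 3.13 and 5.97 CPM in C57BL/6J on 10% fat and at 1.15, 2.22, 1.43 and 0.929 CPM on 44% fat. Its CAST/EiJ diets did not overlap, its C57BL/6J diets overlapped through replicate 2 on 10% fat, and its interaction was 3.33 (adjusted p = 0.00124, and 0.0256 without the libraries high in muscle genes).

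Hist2h2aa2 and Rnase2a were among the named genes with counts too low in a group for a fold. Hist2h2aa2, a histone gene with near-identical copies, had 0 counts in all CAST/EiJ libraries on 44% fat, at most 6 on 10% fat, at most 1 in C57BL/6J on 10% fat and 2 to 7 on 44% fat. Rnase2a, an eosinophil-type ribonuclease of a large gene family, had 1 to 3 counts in C57BL/6J on 10% fat and 4 to 59 on 44% fat, against 69.4 to 126 CPM in the 8 CAST/EiJ libraries, whose diets overlapped. Its call was lost in 13 of 16 fits without 1 library.

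The remaining genes among the 12 lowest lie outside the lists. Hephl1, a copper-dependent oxidase, and Ttc25, a gene of motile cilia, fell in CAST/EiJ by 2.50 and 3.55 on the log2 scale, with interactions of -3.22 and -2.90. Podnl1, a small proteoglycan of the matrix, and Tmem79 fell by 2.57 and 2.83, with interactions of -3.30 and -2.89. Ncan, a brain proteoglycan, stood at 3.12, 6.78, 3.26 and 11.6 CPM in CAST/EiJ on 10% fat, at 0.753, 1.11, 3.29 and 2.89 CPM on 44% fat, at 0.585, 3.55, 2.00 and 1.59 CPM in C57BL/6J on 10% fat and at 5.89, 5.68, 14.9 and 3.12 CPM on 44% fat. The Ncan diets overlapped in both strains, neither diet effect was called, and the interaction was -3.55 (adjusted p = 0.0129).

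Calls in the macrophage and inflammatory lists were confined to the lipid-associated macrophage list. No member of the macrophage, inflammatory mediator, lymphocyte, neutrophil and mast cell, interferon, endothelial, mesothelial, clock or cell cycle lists was called. Of 15 lipid-associated macrophage genes 4 were called, all negative (4.68% of all genes), with a median of -0.59 (-0.34 with no call without the libraries high in muscle genes): Mmp12, a macrophage elastase (-4.16, lost in 11 of 16 fits), Fabp5 (-1.30), Plin2, a lipid droplet protein (-1.14), and Ctsd, a lysosomal protease (-0.84). Fat cells also express the last 3. The defining markers Trem2 (-0.59), Itgax (-1.49) and Adgre1, a pan-macrophage gene (0.19), were not called, with adjusted p of 0.569, 0.0915 and 0.758.

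Adipocyte identity and insulin signalling genes showed no shared shift. Of 17 adipocyte identity genes 1 was positive and 1 negative, Pck1 and Slc2a4, with a median of -0.03 (0.11 under library totals), and Adipoq (0.22) and Pparg (-0.60) were not called. Of 20 insulin signalling genes Grb10 and Trib3, an inhibitor of Akt (0.95), were positive and Pik3r1, a regulatory subunit of PI3-kinase (-0.97), was negative. The receptor Insr and the adaptors Irs1 and Irs2 gave 0.35, 0.45 and 0.96, none called. Of 17 antioxidant genes Srxn1, Sod3 and Gclm were negative (-0.84, -0.62 and -0.57) and Cat, catalase, was positive (0.59). None of these antioxidant genes was called without the libraries high in muscle genes. Of all genes tested, 2.87% were called positive and 4.68% negative. Calls in other lists included Pdia4, a chaperone of the endoplasmic reticulum (0.66), Esr1, the oestrogen receptor (0.69), Dpp4, a marker of fat progenitors (0.80), and Snrpn, an imprinted splicing gene (-0.53). The oxidative phosphorylation and mitochondrially encoded lists had no call.

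**Figure D4:**
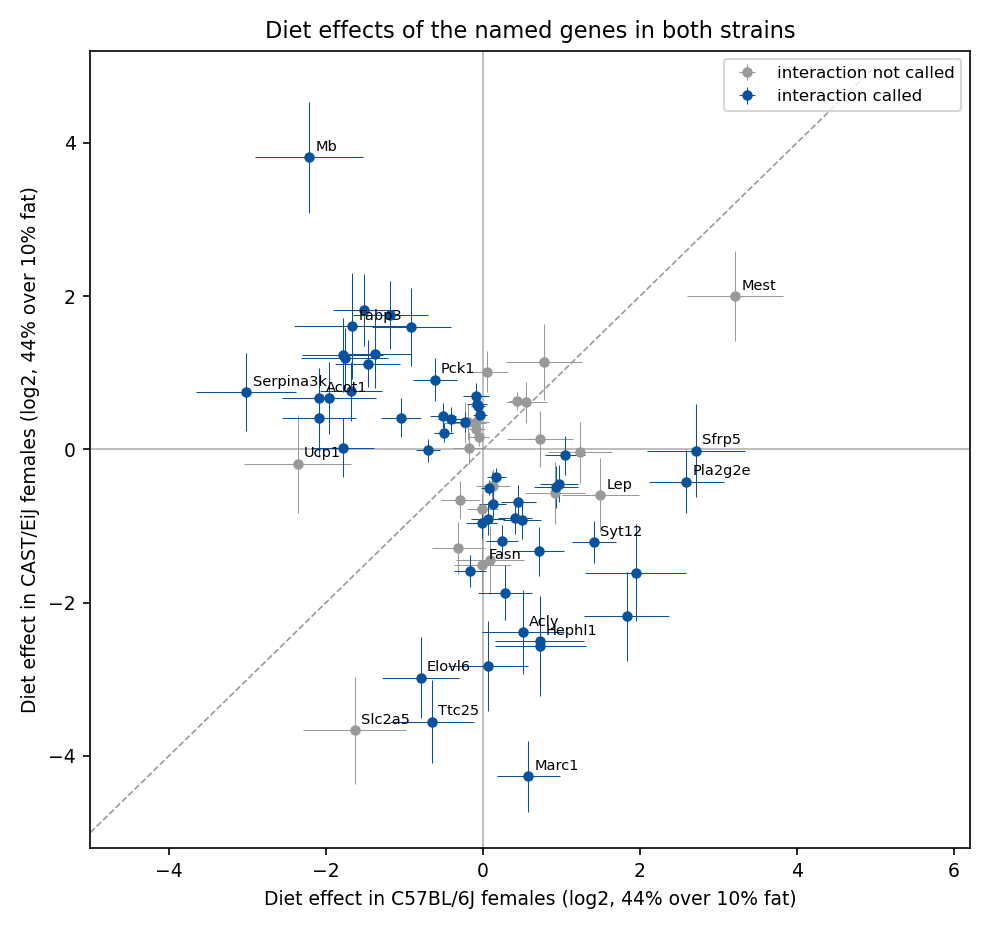
Diet effect (log2, 44% over 10% fat) in C57BL/6J females against that in CAST/EiJ females for 77 named genes, with bars of 1 standard error. The dashed line marks equal effects, and 5 genes with counts near 0 in a group, Rnase2a among them, are left out. The 53 genes called for the interaction lie away from the line, mostly in the quadrants where the estimates have opposite signs. Selection for the interaction partly fixes both.

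The same contrast was taken in males, whose 15 libraries share none with the females. There 62 genes (0.33%) were called, 11 positive (0.0586%) and 51 negative (0.272%), and 8 of them were among the 1417 of females, with 2046 at an unadjusted p below 0.05 in males. The interaction of diet, strain and sex, which tests whether the females differed from the males, called 0 genes in edgeR, 59 in DESeq2 and 2 in limma, with 1674 at an unadjusted p below 0.05 in edgeR. Of the 1417 female calls 1196 (84.4%) had the same sign in males, against 62.4% of all genes. Across genes, which are not independent, the male and female interactions correlated at r = 0.176 over all genes and r = 0.50 over the female calls.

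Marc1 and Rnase2a were the named genes called in both sexes. Marc1 stood at -5.63 in males, and Pla2g2e stood at -2.40 (adjusted p = 0.0638). Of the 58 named genes called in females 49 had the same sign in males. List medians in males were -0.43 for lipogenesis, -0.31 for glucose and fructose use and -0.51 for cholesterol synthesis, with 0 members called, against 0 over all genes. Acly stood at -0.78 in males, a difference from females of -2.11 (adjusted p = 0.576). Serpina3k was at -1.09 in males, and its difference of 4.85 from females had an adjusted p of 0.131.

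**Figure D5:**
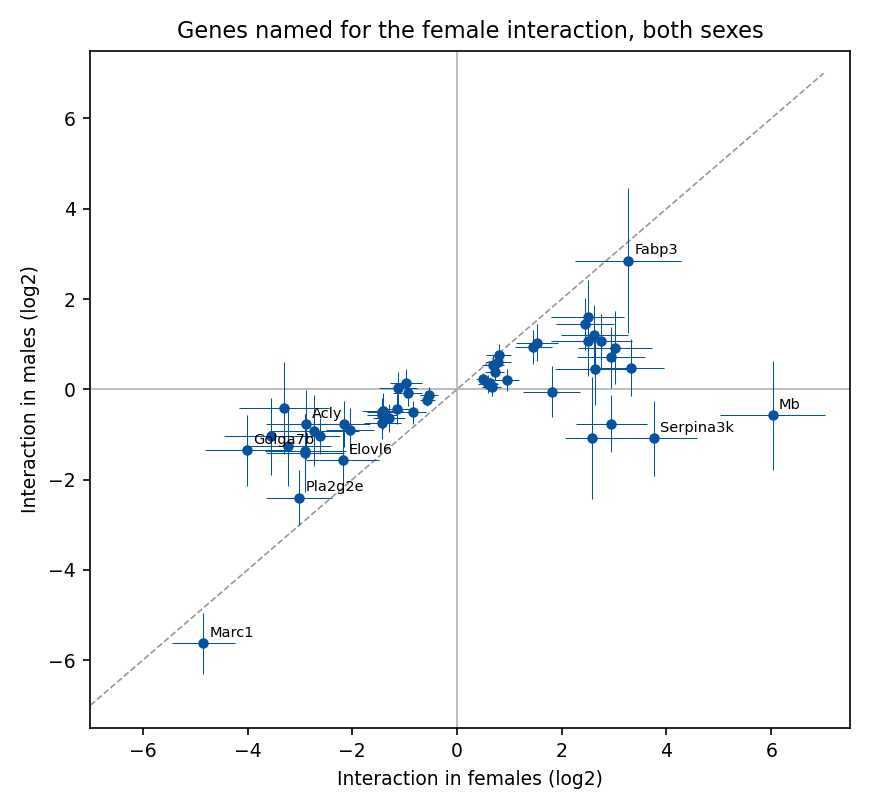
Interaction of diet and strain (log2) in females against that in males for 53 named genes called in females, leaving out the same 5 with counts near 0 in a group, with bars of 1 standard error and a dashed line of equal values. Marc1 lies near the line, and most other negative genes lie between the line and 0 in males.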

How the data were processed

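Poly(A) RNA of gonadal fat pads was sequenced in pairs, per the labels' protocols. The authors deposited expected counts, estimated for each gene, of which 21.5% were not whole (tolerance 1e-06). They were rounded. A deposited file of log2 values, variance-stabilized by the authors, was used for an alternative fit, and the deposited gene positions gave coordinates. DESeq2 and GRCm38 are named in the submitters' processing notes. Not given in the sources used here were the aligner, the counter, the annotation and whether reads were aligned to each strain's own genome, which can move levels between strains.

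Genes passing filterByExpr (minimum count 10) in 12 groups were tested, 18769 of 22376, in edgeR 4.0.16 (R 4.3.3) with TMM scaling, 1 mean per group over all 47 libraries, which left 35 residual degrees of freedom, and Benjamini-Hochberg adjustment over all genes tested. CPM values use the TMM-scaled library totals. Depth was 29.5 to 56.4 M counts per library. Within a group the libraries differed well beyond sampling noise (chi-square per degree of freedom at least 24.2), so none was counted as a repeat. The test was checked on counts simulated from the fitted group means and spreads. No simulated library was made to stand apart from its group, so that check does not cover the libraries that did so here.

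The rule named the 12 highest and 12 lowest interactions of called protein-coding genes (mean log2 CPM at least 1), up to 6 genes called with opposite diet effects, a panel of 30 genes, and up to 4 called members of each list. Further list members and genes given in the text were chosen after their values were seen. The libraries, lists and rules were chosen with earlier results of these data known. Alternatives were DESeq2 1.42.0, limma 3.58.1 on the deposited log2 values, other scalings and filters, the ranges of sample numbers in the labels, and leaving out libraries. Columns without a label numbered 0. Promoter windows came from RefSeq (GRCm38.p6). A few named genes are not reported here.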

Additional observations from a re-analysis of the deposited data

Results flagged for a closer look

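The diet effect differed between CAST/EiJ and C57BL/6J females, by the test of the interaction itself, for 1417 genes. Of 120 groups of 4 libraries examined (18 genes and 12 lists), 14 had a library far from the other 3 in its group. The rule flags about 1 in 20 for independent, normally distributed values. These CPM values were not shown to be such, and flags recurred in the same libraries, so no excess over that rate is read.

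In CAST/EiJ on 44% fat, replicate 4 was high for Atp2a1 (14 CPM, others at most 0.534) and Slc25a34 (14.5 CPM, others 3.89 to 4.87) and low for the summed mammary epithelium list (35.7 CPM, others 49.9 to 50). Replicate 1 of that group was high for the B and plasma cell list (30.1 CPM, others 12.8 to 15.1). In CAST/EiJ on 10% fat, Fabp3 was low in replicate 3 (1.57 CPM) and the adipocyte identity list was high in replicate 1 (41300 CPM).

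In C57BL/6J on 44% fat, Acly was low in replicate 4 (991 CPM, others 3020 to 3380), Marc1 was high in replicate 3 (96.8 CPM) and Atp2a1 was high in replicate 1 (0.399 CPM). In C57BL/6J on 10% fat, replicate 2 was high for Marc1 (103 CPM, others 25 to 37.6) and Sfrp5 (3.86 CPM, others 1.68 to 1.83). Replicate 3 of that group was high for Atp2a1 (78.4 CPM), for Hist2h2aa2 (0.0351 CPM, others at 0) and for the skeletal muscle list (396 CPM, others 11.6 to 69.6).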

How the results depend on the processing

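The interaction in females gave 677 to 2367 calls when single libraries were left out, diet in CAST/EiJ 677 to 1357 and diet in C57BL/6J 386 to 2473. In alternatives added after seeing the data, without the 3 libraries high in skeletal muscle genes the interaction had 103 calls and diet in C57BL/6J 12, and without a further library high in B cell genes they had 49 and 5, with fewer libraries in each fit. Library totals gave 2151 calls for diet in CAST/EiJ, and the 16 libraries alone gave 842 for diet in C57BL/6J. The male interaction had 190 calls in DESeq2, 37 with library totals, 29 with the range of sample numbers as a term, 41 without a filter and 10 in limma on the deposited log2 values. The interaction with sex had 59 calls in DESeq2 and 2 in limma. The cause was not tested.

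DESeq2 called 1895 genes for the female interaction, 1365 of them among the 1417, and all 58 named calls. Of those 58, 36 were called in every fit without a single library, 8 without the libraries high in muscle genes, and 58 kept their sign there. Within the 3 ranges of sample numbers 1375 of the 1417 (97%) had the same sign in each. The ranges and the fits without libraries reuse libraries that made the calls, so this agreement was partly fixed by the selection. The share over all genes was not taken for the ranges. Col6a3 was the only named gene whose estimate changed sign in any alternative run. It was 0.06, against -0.00235 with the range term and -0.39 to 0.19 without single libraries. No paired analysis was possible because the labels carry no replicate numbers. At 4 libraries a group, near-zero genes such as Hist2h2aa2 cannot be sized.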
